A study of Drosophila melanogaster with 4 samples.

Results

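A set of 6 genes of cytosolic translation, found by their gene identifiers, are described here among the 244 genes that the authors listed as differing between larval airways that overexpressed the receptor PGRP-LE and control airways. They are RpL22, RpL7A, sta and RpS15Aa, which encode proteins of the cytosolic ribosome, ArgRS, which encodes arginyl-tRNA synthetase, and brat, which encodes a repressor of translation. Each has 1 row in the authors' deposited table. They were chosen by name and role from the genes in that table, with earlier results of these data known, so their presence there is given by the choice. The table itself was selected by the authors for a difference on the same arrays. Their values are therefore a description of listed genes, with no test of whether each differed from 0.

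The study measured RNA from the tracheae of third-instar Drosophila melanogaster larvae, raised at 22 °C for about 10 days, on two-colour arrays, in which both RNAs of a comparison are hybridised to the same array with different dyes. One RNA came from the progeny of the driver strain NP2610 crossed with a UAS-PGRP-LE strain, written NP2610::UAS-PGRP-LE in the labels (the file has NP2160 for the driver). The other came from the strain NP2610 alone, which carries the driver and no UAS transgene. In the GAL4/UAS system the driver makes GAL4 in a chosen tissue, here the trachea per the design text, and GAL4 turns on the gene behind the UAS. PGRP-LE binds bacterial peptidoglycan and starts the immune deficiency (IMD) pathway, so the comparison asked how airway cells respond when that pathway is switched on without infection. Each RNA pooled 20 pairs of tracheae, and there were 4 arrays, titled as 2 biological replicates with 1 technical replicate each. Only the PGRP-LE larvae had a second parental strain, so the transgene and the genetic background cannot be told apart.

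A ribosome consists of a large subunit, which forms the peptide bonds, and a small subunit, which reads the messenger RNA, and each holds many proteins that cells make in matched amounts. Aminoacyl-tRNA synthetases load amino acids onto transfer RNAs, and initiation factors bring the small subunit to the messenger RNA. Brat belongs to the TRIM-NHL family, restrains growth and ribosomal RNA synthesis in Drosophila larvae, and in the embryo acts with Pumilio and Nanos to repress translation of hunchback.

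Of the ribosomal protein genes 3 of 4, RpL22, RpL7A and sta, together with brat, were listed as lower in the PGRP-LE airways, while RpS15Aa and ArgRS were listed as higher. Of the 6 members, 4 were lower, while in the whole table of 244 genes 57 (23.4%) were lower. The 2 higher members lay on the side that held 187 genes (76.6%) of the authors' deposited table. The median mean log2 ratio was -0.80 over the 4 ribosomal protein genes and 0.82 over all 244 genes of the authors' deposited table. Those percentages describe a list selected for differences, in which a gene had to be on one side or the other. The file does not say which channel is the numerator; its hybridisation group carries the name of the cross, so a positive ratio is read as likely more RNA in the PGRP-LE airways. Under that reading AttC, which encodes an antibacterial peptide and is a known target of the IMD pathway, stood at 2.02 (authors' SD 0.52 across 8 spots) in the authors' deposited table. PGRP-LE itself was not listed, so the transgene has no value there. In RNA from whole tracheae, fewer cells of one type and less RNA per cell cannot be told apart.

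**Figure D1:**
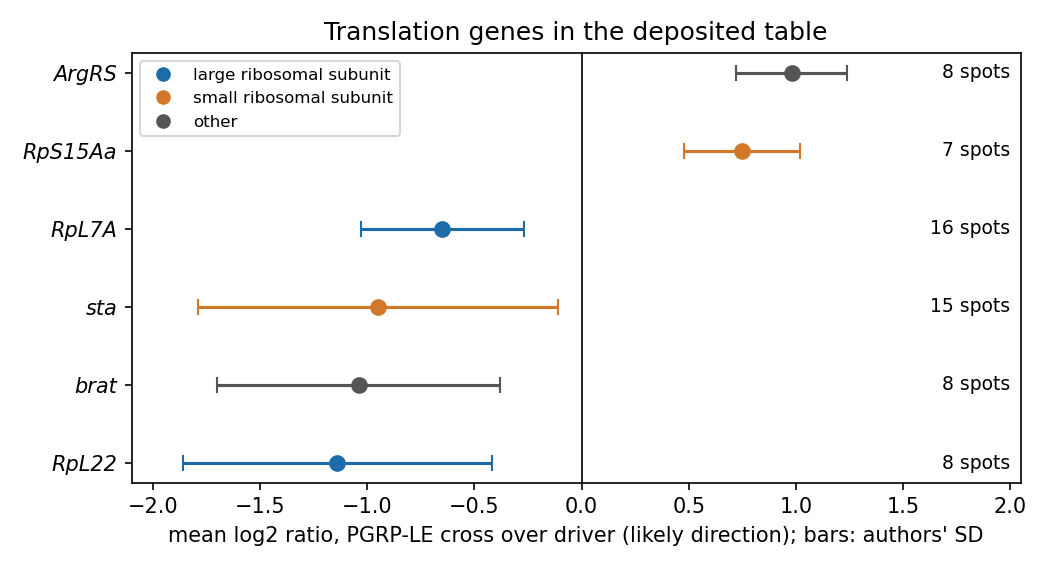
Mean log2 ratio (x axis, PGRP-LE cross over driver as the likely direction) of the 6 genes, one per line, with bars of 1 authors' standard deviation over the spots given at the right. RpL22, brat, sta and RpL7A lie below 0 at -1.14 to -0.65, and RpS15Aa and ArgRS lie above it at 0.75 and 0.98, and no bar reaches 0.

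The large subunit was represented by RpL22 and RpL7A, both lower. RpL22, whose fly protein carries an amino-terminal extension resembling histone H1, had a mean log2 ratio of -1.14 (authors' SD 0.72 across 8 spots) in the authors' deposited table, a 2.20-fold lower level. One standard deviation to either side spans sizes of 1.34-fold to 3.63-fold. Among the 57 lower genes of the authors' deposited table, 9 had a larger size than RpL22. RpL7A, a structural protein of the same subunit, stood at -0.65 (authors' SD 0.38 across 16 spots) in the authors' deposited table, 1.57-fold lower. This was the value nearest to 0 among all 57 lower genes, the next being -0.66, so RpL7A sits at the edge of the lower side. On the higher side the smallest listed mean was 0.59. RpL22 and RpL7A differed by 0.49 on the log2 scale, less than the sum of their standard deviations (1.10).

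The small subunit was represented by one gene on each side. Sta (stubarista), which encodes the fly counterpart of the protein RPSA, stood at -0.95 (authors' SD 0.84 across 15 spots) in the authors' deposited table, 1.93-fold lower. Its spread was among the widest relative to the mean: the coefficient of variation, which sets the standard deviation against the mean, was 0.89, and 19 listed genes, sta included, had one that large in the authors' deposited table. RpS15Aa, another structural protein of the small subunit, stood at 0.75 (authors' SD 0.27 across 7 spots) in the authors' deposited table, 1.68-fold higher. Sta and RpS15Aa differed by 1.70 on the log2 scale, with a sum of standard deviations of 1.11. Any 2 listed genes of opposite direction lie further apart than that sum, because no listed standard deviation exceeds the size of its mean, so nothing is read from it.

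The 2 subunits could not be ordered. The mean over RpL22 and RpL7A was -0.895 and that over sta and RpS15Aa was -0.10, a difference of -0.795 (large minus small, log2) in the authors' deposited table. That difference is smaller than the gap of 1.70 within the small subunit, and it rests on 2 genes a side. Without RpS15Aa, which had fewer than 8 valid spots, the difference was 0.055 in the other direction. Weighted by the number of spots, a choice made after the values were seen, the difference was -0.404. No test was made, since values per array could not be tied to genes.

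ArgRS, which charges the transfer RNA for arginine, stood at 0.98 (authors' SD 0.26 across 8 spots) in the authors' deposited table, 1.97-fold higher, with 1.65-fold to 2.36-fold within 1 standard deviation. It had the smallest coefficient of variation of the 6 genes, 0.27, and 18 listed genes, ArgRS included, had one as small in the authors' deposited table. The gene brat stood at -1.04 (authors' SD 0.66 across 8 spots) in the authors' deposited table, 2.06-fold lower, with 15 of the 57 lower genes at a larger size. Brat, a repressor, and the 3 lower ribosomal protein genes, parts of the machinery, were thus listed on the same side.

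Among the 15 pairs that the 6 genes form, the ranges of 1 standard deviation around the means sorted by direction alone. All 7 pairs with the same direction had overlapping ranges. The standard deviation is a spread over spots and not the uncertainty of a mean, so overlap does not decide whether means differ. The order of RpL22, brat, sta and RpL7A was therefore not tested, nor that of ArgRS and RpS15Aa, and no ranking is read. None of the 8 pairs with opposite directions overlapped. Since every listed gene has a coefficient of variation of at most 0.97, a range of 1 standard deviation cannot cross 0 in the authors' deposited table, and the separation of the opposite pairs follows from that limit.

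In log2 units the higher members had narrow spreads, and among the lower ones RpL7A had a narrow spread and the others wider ones. For ArgRS, 11 of the 187 higher genes in the authors' deposited table had a standard deviation as small or smaller, itself included, and for RpS15Aa 13 of 187 did. For RpL22, sta and brat, 17, 6 and 20 of the 57 lower genes had one as large or larger, themselves included. RpL7A went the other way, with a standard deviation of 0.38 that 48 of the 57 lower genes reached or passed. Relative to its small mean that spread was not narrow. Its coefficient of variation was 0.59, and 127 of the 244 listed genes, RpL7A included, had one as small or smaller. Over the whole authors' deposited table the median standard deviation was 0.58 for lower and 0.52 for higher genes, close to each other. A coefficient of variation under 0.5 was met by both higher members and by none of the 4 lower ones. It was met by 29.8% of lower and 33.7% of higher genes in the authors' deposited table. No standard error was derived from these values, because spots of 1 array or 1 RNA are not independent replicates.

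**Figure D2:**
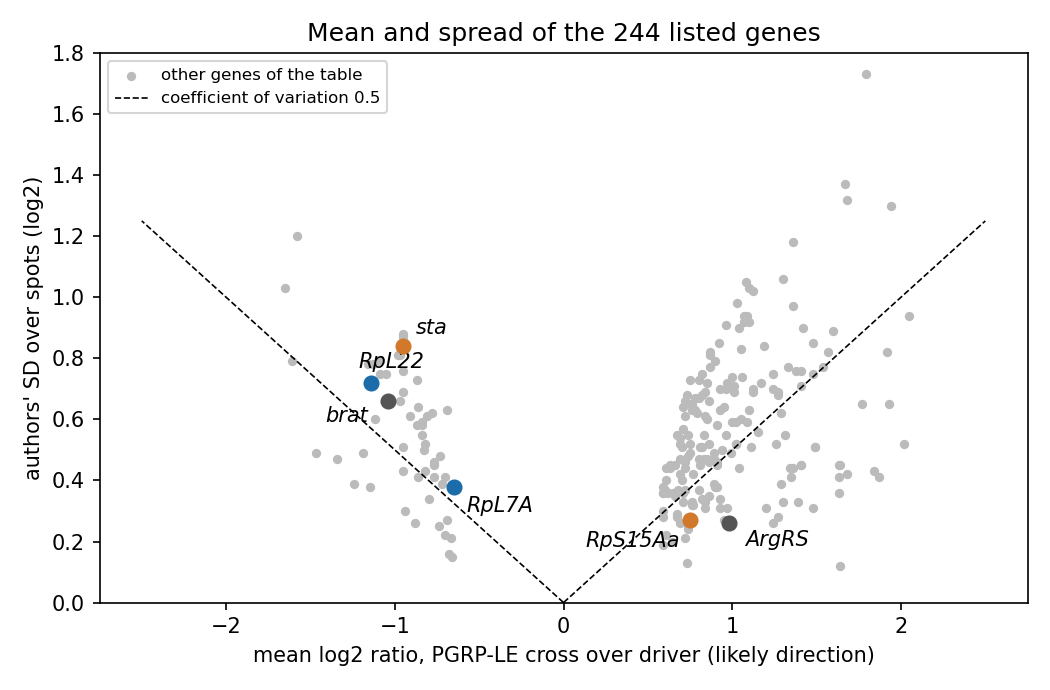
Authors' standard deviation over spots (y axis, log2) against mean log2 ratio (x axis) for the listed genes, in grey, with the 6 translation genes named and dashed lines at a coefficient of variation of 0.5. ArgRS and RpS15Aa lie under the dashed line with standard deviations of 0.26 and 0.27, and RpL22, brat, sta and RpL7A lie above it at 0.38 to 0.84.

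RpL7A and sta had more valid spots than nearly all other genes. Whether their rows pool spots of different probes is not known here. There were 16 valid spots for RpL7A and 15 for sta, and 6 genes had more than 8 in the authors' deposited table. The other 238 had 6 to 8, RpL22, RpS15Aa, ArgRS and brat among them. Sta had a spread of 0.84 over its 15 spots, and RpS15Aa, the one ribosomal protein gene on the higher side, rested on 7.

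Chromosomal position was shared by most of the genes and was not used to choose them. RpL22, RpL7A, sta, RpS15Aa and ArgRS are all on the X chromosome, and brat is on arm 2L. RefSeq's gene table for the fly assembly Release 6 names 93 protein-coding genes of the cytosolic ribosome (symbols starting with RpL or RpS, and sta), of which 15 (16.1%) are on the X. All 4 that appear in the authors' deposited table are among those 15. Of 20 genes named as cytosolic synthetases 4 are on the X, and ArgRS, the one listed, is one of them. The X held 34 (14.2%) of the 240 listed genes whose arm was known, against 15.7% of all protein-coding genes in RefSeq. Which ribosomal protein genes had probes on the array is not known here, and no test of position was made.

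The share of listed genes that were lower was higher on the X than elsewhere, with and without the members, under the likely direction of the ratio, and this difference was not tested. Lower genes made up 12 of 34 on the X (35.3%) and 42 of 206 elsewhere (20.4%) in the authors' deposited table. With the ratio read the other way the order turns, to 64.7% lower on the X and 79.6% elsewhere. Leaving out the 6 members, the authors' deposited table had 9 of 29 (31.0%) lower on the X and 41 of 205 (20.0%) elsewhere. The other arms ranged from 13.4% lower on 2R to 28.6% on 2L, a range that was itself wide. Among genes with a coefficient of variation under 0.5, 3 of 13 on the X (23.1%) and 13 of 66 elsewhere (19.7%) were lower in the authors' deposited table. The male dosage compensation RNA roX2, itself an X gene, stood at -0.95 (authors' SD 0.51 across 12 spots) in the authors' deposited table. The labels give no sex for the pooled larvae, and the part of sex in the values of the 5 X-linked members was not tested.

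**Figure D3:**
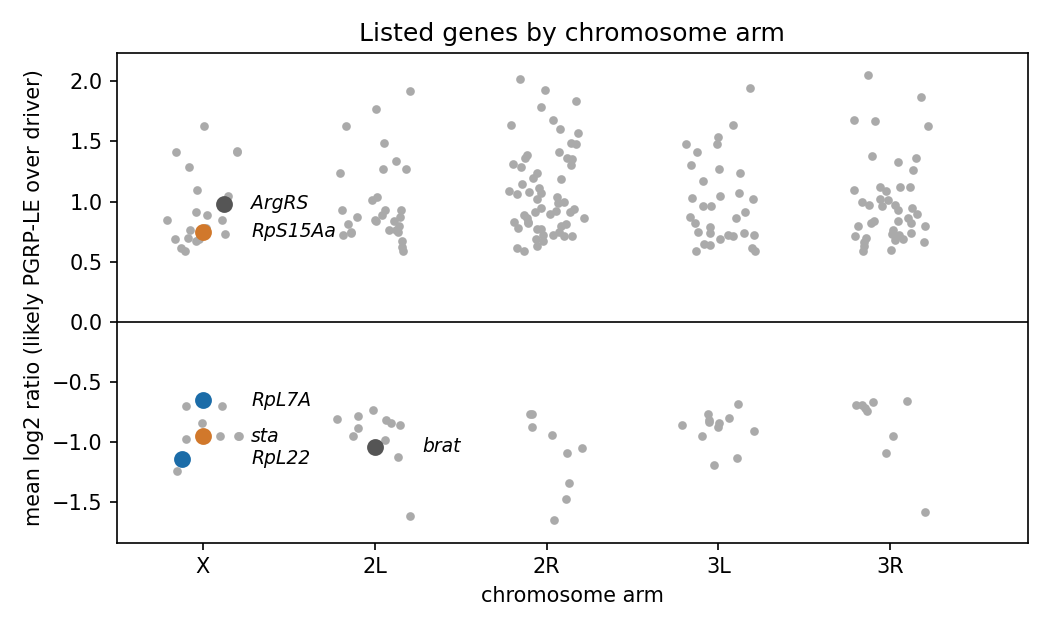
Mean log2 ratio (y axis) of each listed gene by chromosome arm (x axis), with points spread sideways for view, other genes in grey and the 6 translation genes in colour and named. Of the 6, 5 stand in the X column, 3 below 0 and 2 above it, and brat stands in the 2L column.

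The nearest listed neighbours of the 6 genes were on the same side for 3 of them and on the opposite side for 3, and 5 of the 6 neighbours were higher, as was 76.6% of the list. By order of protein-coding genes on its arm, the nearest listed gene was on the same side for RpL22 (CG13369 at -0.95, 16 genes away), RpS15Aa (IP3K2 at 0.76, 2 genes away) and ArgRS (Gapdh2 at 0.69, 9 genes away) in the authors' deposited table. It was on the opposite side for sta (CG12773 at 1.10, 24 genes away), RpL7A (CG17982 at 1.05, 159 genes away) and brat in the authors' deposited table. For brat that neighbour was Ddc, which encodes dopa decarboxylase, at 1.92 and 7 genes away. By CG number, the serial number of a gene annotation, sta was closest to CG14803, also on the X and also at -0.95 (authors' SD 0.76), 11 numbers away in the authors' deposited table. ArgRS was also on the side of its closest gene by number, Listericin at 1.48, in the authors' deposited table. The other 4 were on the opposite side, RpL22 from CrebA at 1.05, RpL7A from CG3348 at 0.97, RpS15Aa from Hat1 at -0.74 and brat from Ddc at 1.92 in the authors' deposited table. Of the 6 closest genes by number 4 were higher. Those of RpL22, RpL7A, RpS15Aa and ArgRS are on other arms than the member, so closeness by number is no measure of position.

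Few genes of the wider translation machinery were listed. The list held 232 (1.66%) of the 13962 protein-coding genes in RefSeq. The shares for both subunits and the synthetases were above that, and those for translation factors and mitochondrial ribosomal proteins were near it. The members were chosen from the list, so no enrichment is read from these shares. Of 54 large subunit symbols in RefSeq 2 (3.70%) were listed, and of 39 small subunit symbols 2 (5.13%). Of 20 cytosolic synthetases 1 (5.0%) was listed, and of 54 initiation, elongation and release factors 1 (1.85%). The listed factor was eIF3b, a scaffold of initiation factor 3, at 0.91 (authors' SD 0.45 across 6 spots) in the authors' deposited table. Of 73 mitochondrial ribosomal proteins 1 (1.37%) was listed, mRpL46, at 0.91 (authors' SD 0.46 across 8 spots) in the authors' deposited table. No gene was listed from 10 partners and targets of Brat, pum, nanos and Myc among them, or from 8 regulators of ribosome production, S6k and Thor among them. Absence from a list of selected genes gives no level for these genes. A further 2 genes were picked out after their values were seen. The authors' deposited table gave mIF3, a mitochondrial initiation factor, at 1.36 (authors' SD 0.97 across 6 spots) and RIOK2, a kinase that matures the small subunit, at 0.66 (authors' SD 0.45 across 8 spots). All of these lay on the side that held 76.6% of the list, so no pattern is read from their direction.

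The file's own annotation gave the term protein biosynthesis to 3 genes, RpL22, RpL7A and sta, all lower. RpS15Aa carried no annotation there, like 92 of the 244 genes, and ArgRS was filed under arginyl-tRNA aminoacylation. Counting by the file's terms thus leaves out the one higher ribosomal protein gene. RpS15Aa and RpL22 each have a near copy named in RefSeq, RpS15Ab and RpL22-like, and hybridisation of a copy to their probes was not resolved here.

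Markers of other cell types were also in the list, on both sides. The fat body gene Lsp2 stood at -0.86, the muscle gene Mf at -1.09, the neuronal gene fne at -0.95 and the gut protease gene Jon99Fi at -1.58 in the authors' deposited table, the side of RpL22, RpL7A, sta and brat. Both blood cell genes, NimB2 at 0.80 and atilla at 0.74 in the authors' deposited table, were on the side of RpS15Aa and ArgRS. In all, 6 of 29 such markers (20.7%) were listed, 2 higher and 4 lower, against 23.4% lower over the list. The marker lists were drawn up with earlier results of these data known, so the share that was listed is no measure of enrichment. Salivary gland markers had no member in the list. The part of other cell types in the members' values was not tested.

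The 4 arrays were also deposited as values per spot, without gene names, so no value on a single array can be given for any member. Each array had 32448 spots with log ratios whose base and direction are not stated, and whose medians ran from -0.41 to 0.98, so they had not been centred. Arrays correlated with each other across spots at r of -0.09 to 0.11, while spots next to each other within an array, taken in pairs of an odd and the following even number, correlated at 0.31 to 0.55, against 0.18 to 0.30 for an even and the following odd number. Over 16224 such pairs, limma on the 2 biological replicates called 0 (0%) at an adjusted p of 0.05, with 580 (3.57%) at an unadjusted p under 0.05. Centred on each array's median, 9 pairs were called. The biological and technical arrays averaged within each replicate correlated across spots at r of -0.09 (replicate 1) and 0.01 (replicate 2). With 2 replicates and array directions not settled, neither count measures how many genes differed. The 7 airway marker genes checked had none in the list, which gives no measure of tissue identity.

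**Figure D4:**
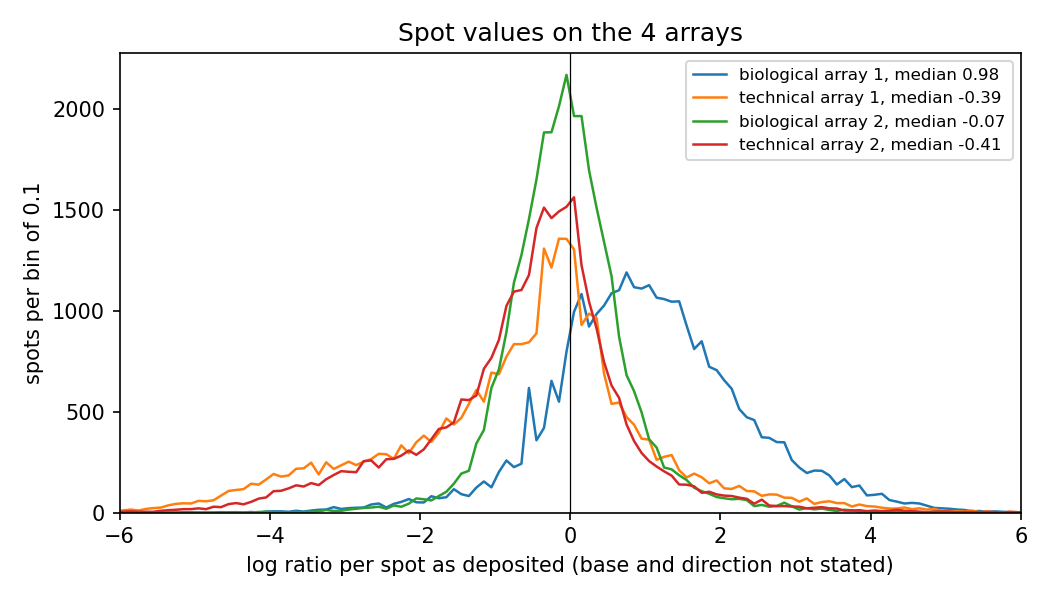
Number of spots (y axis, per bin of 0.1) by deposited log ratio (x axis, base and direction not stated) on each of the 4 arrays. Biological array 1 is centred near 0.98, and the others at -0.41 to -0.07, and biological array 2 is the narrowest with a standard deviation of 0.81.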

How the data were processed

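Per the file headers, the authors deposited for each listed gene a mean log2 ratio, the standard deviation of those log2 ratios and the count of valid spots behind it. The coefficient of variation is a ratio the authors deposited, equal to the standard deviation over the size of the mean to within 0.014. Per the series' design text the genes were selected from SAM and GeneTraffic output, while its thresholds, background correction and normalization were not found in the labels or headers. The value table deposited for the 4 arrays holds a score per spot, a log ratio of unstated base, direction and centring, and its rows are numbered without gene names. The planned fit of members per array could therefore not be made. Instead limma 3.58.1 (R 4.3.3) was run across adjacent spot pairs, technical arrays averaged within each replicate, with Benjamini-Hochberg adjustment. The code was also tried on simulated data. Their noise was independent, centred on 0 and narrower than the spread of the arrays, so they give no measure of power on these arrays. The titles, not the label fields, tie technical arrays to replicates, and the dye fields of biological array 1 give Cy5 to both channels. Depth does not apply to arrays; the number of arrays and spots limits the precision.

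Members were found by CG number through RefSeq's table (Release 6), in which 227 of 244 identifiers matched by locus tag and 13 by a unique older identifier. No coordinates were used for matching, and the order of genes on an arm was taken from RefSeq start positions. Members and lists were chosen with earlier results of these data known. Genes given with a value are the members, AttC, roX2, nearest neighbours and 2 genes picked after their values were seen. All listed genes of the translation lists and of the cell type marker lists were also given. Python 3.11.15, numpy 2.4.6, pandas 2.3.3 and matplotlib 3.10.9 were used. Alternatives were filters on size, spots and spread, the opposite reading of the ratio, and for the arrays centring, a random block and a turned array.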

Additional observations from a re-analysis of the deposited data

How the results depend on the processing

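Counts of members followed the filters, against 4 lower and 2 higher as reported. A log2 size of at least 1 left 2 lower (RpL22 and brat) and 0 higher. At least 8 valid spots left 4 and 1, and a coefficient of variation under 0.5 left 0 and 2. Over all listed genes, the lower share under these 3 filters was 16.8%, 24.3% and 21.2% in that order, against 23.4% unfiltered. With the direction of the ratio turned there are 2 lower and 4 higher members, and 76.6% of all listed genes are lower. That turn also takes the large minus small difference from -0.795 to 0.795. With at least 8 valid spots the difference was 0.055, because RpS15Aa then leaves the comparison. The 12 lower X genes become 22 when the ratio is turned, and 3 with a coefficient of variation under 0.5. A size filter or a limit on the coefficient of variation leaves no gene in one subunit, so neither gives that difference. Across spot pairs limma called 0 as deposited, 9 after centring, 0 with technical arrays as a random block and 0 with biological array 1 turned. The pairs at an unadjusted p under 0.05 numbered 580 (3.57%), 1122 (6.92%), 803 (4.95%) and 2048 (12.6%) in that order. The count was largest with biological array 1 turned, whose direction the labels do not settle. That array was turned without centring, so its median of 0.98 also changed sign, and direction and offset cannot be told apart. The cause of these differences was not tested. Every spot has a value on all 4 arrays, so the filter on missing values changed nothing, and a choice among probes could not be made without gene names. Leaving out a replicate could not be run, because the members' values are pooled and 1 replicate leaves no residual degrees of freedom across spots. No paired analysis was possible because the arrays form 1 group and the genes' values are pooled.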
